A study of Mus musculus with 12 samples.

Results

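Galactocerebroside, the lipid that the O1 antibody binds, is made and broken down by a short chain of enzymes, and 10 of their genes were followed here through sorted mouse oligodendrocytes. The genes were taken by symbol from the deposited count table, in which they are 10 of 55376 genes. They are Sptlc1, Sptlc2, Degs1, Elovl1, Cers2, Fa2h, Ugt8a and Gal3st1 on the synthesis side, and Galc and Arsa on the breakdown side. Oligodendrocytes, the myelin-forming cells of the central nervous system, were sorted from C57BL/6 brains at postnatal day 40 as live O1+ CD45- cells, and RNA was sequenced in 4 samples of each of 3 genotypes, with 2 brains in every sample. The genotypes were WT, Cnp-Cre:Jab1fl/fl (Jab1 mutants) and p21-/- Cnp-Cre:Jab1fl/fl (double mutants). Jab1, which the count table lists as Cops5, encodes a subunit of the COP9 signalosome. The Cnp promoter drives Cre late in the progenitor stage and in differentiated oligodendrocytes, so that deletion of Jab1 is directed to those cells, not all of which recombine, whereas p21 (Cdkn1a) is lacking in the whole animal in double mutants. Both mutant groups carry the Cre transgene and the floxed Jab1 alleles.

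The chain starts where serine palmitoyltransferase joins serine to palmitoyl-CoA, and it passes through a reduced sphingoid base and dihydroceramide to ceramide. Oligodendrocytes favour very long and 2-hydroxylated acyl chains, and add galactose to ceramide to form galactocerebroside, part of which is then sulfated to sulfatide. These galactolipids make up a large share of myelin lipid. In lysosomes, arylsulfatase A takes off the sulfate and galactosylceramidase takes off the galactose, and loss of either enzyme causes a leukodystrophy in humans. The O1 gate therefore selects cells on the product of Ugt8a, although the sorted samples also held RNA of other cells, whose markers were counted in them.

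The sequence in front of a RefSeq transcription start is shown for 4 of the genes. Ugt8a was chosen because it makes the sort antigen, and Cers2 and Degs1 because they passed the test in Jab1 mutants. Sptlc2 was chosen as the synthesis gene that was not lower there. Sequences are from RefSeq on build GRCm38.p6, read 5′ to 3′ on the strand of the gene. They are the 250 bases before that start, shortened where another annotated exon of the same gene begins. They lie at chr3:125938653-125938902 on the minus strand (Ugt8a), chr3:95314940-95315083 on the plus strand (Cers2, ending 107 bases before the start), chr1:182282225-182282445 on the minus strand (Degs1, ending 30 bases before the start) and chr12:87388356-87388605 on the minus strand (Sptlc2). The Cers2 and Degs1 stretches lie inside the annotated genes (chr3:95314791-95323599 and chr1:182275772-182282804), whose annotation begins further upstream. Capitals mark matches, on either strand, to GGGCGG (a GC box), CCAAT or CACGTG (an E-box).
Ugt8a: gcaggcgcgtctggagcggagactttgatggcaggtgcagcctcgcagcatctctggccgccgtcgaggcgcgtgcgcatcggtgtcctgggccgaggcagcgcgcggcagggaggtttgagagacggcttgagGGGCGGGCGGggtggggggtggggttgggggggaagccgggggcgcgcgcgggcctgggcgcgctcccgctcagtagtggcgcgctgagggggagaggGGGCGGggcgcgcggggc
Cers2: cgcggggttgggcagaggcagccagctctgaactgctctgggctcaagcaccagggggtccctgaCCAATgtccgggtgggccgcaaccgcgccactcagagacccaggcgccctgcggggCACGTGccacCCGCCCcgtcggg
Degs1: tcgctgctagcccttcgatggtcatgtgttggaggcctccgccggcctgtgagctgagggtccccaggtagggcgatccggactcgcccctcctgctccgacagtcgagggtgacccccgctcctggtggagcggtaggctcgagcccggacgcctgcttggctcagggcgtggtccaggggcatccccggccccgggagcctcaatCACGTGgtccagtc
Sptlc2: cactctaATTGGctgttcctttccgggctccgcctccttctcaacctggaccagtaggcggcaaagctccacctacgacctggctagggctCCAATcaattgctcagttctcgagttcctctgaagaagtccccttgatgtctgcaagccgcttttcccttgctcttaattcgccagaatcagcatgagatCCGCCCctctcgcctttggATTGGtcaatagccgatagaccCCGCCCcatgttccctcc
RefSeq starts were at hand for 9 of the 10 genes, with 13 promoters in all. GGGCGG stood in 7 of the 13 and in 32.7% of 32851 mouse promoters of that length. CCAAT stood in 6 of the 13 and in 33.8%, and 2 of the 6 are overlapping promoters of Gal3st1 that hold the same match. CACGTG, whose letters read the same on both strands, stood in 3 of the 13, those of Cers2, Degs1 and Arsa, and in 6.02% of all promoters. ACAAAG stood in 1 (Sptlc1; 16.5% of all promoters) and ACAATG in 2 overlapping ones of Gal3st1 (10.7%), both being core letters of SOX factor motifs. No match was found in the 13 windows for TATAAA (12.4% of all promoters), nor for CTGGCAC (4.19%) or CTGGTAC (1.83%), letters of the motif of the myelin regulatory factor. These are matches of letters, and no binding was measured.

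The samples held between 61485556 and 153495112 counts, with a median of 103095818. Levels are given as CPM, counts scaled to one library size for all samples, with the TMM correction for composition that edgeR applies. Cops5 ranged from 48.4 to 139 CPM in WT, from 42.5 to 86.1 CPM in Jab1 mutants and from 45.6 to 87.5 CPM in double mutants, so that the groups overlapped. Cdkn1a ranged from 17.0 to 89.0 CPM in WT, from 366 to 603 CPM in Jab1 mutants and from 63.3 to 106 CPM in double mutants. Counts of the gene were thus still present in p21-/- samples. By qPCR on sorted oligodendrocytes, the authors could not detect Cdkn1a in double mutants and found Cops5 reduced in Jab1 mutants. The counts are per gene, and which exons they came from was not tested. All 15 markers of mature oligodendrocytes were counted in all groups, but markers of other cells were too. Astrocyte markers summed to between 3444 and 12725 CPM per sample, in all 3 genotypes. Microglia markers summed to 104 to 324 CPM in WT, 1192 to 2957 CPM in Jab1 mutants and 448 to 20856 CPM in double mutants, where replicate 3 was highest, although the sort had excluded CD45+ cells.

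**Figure D1:**
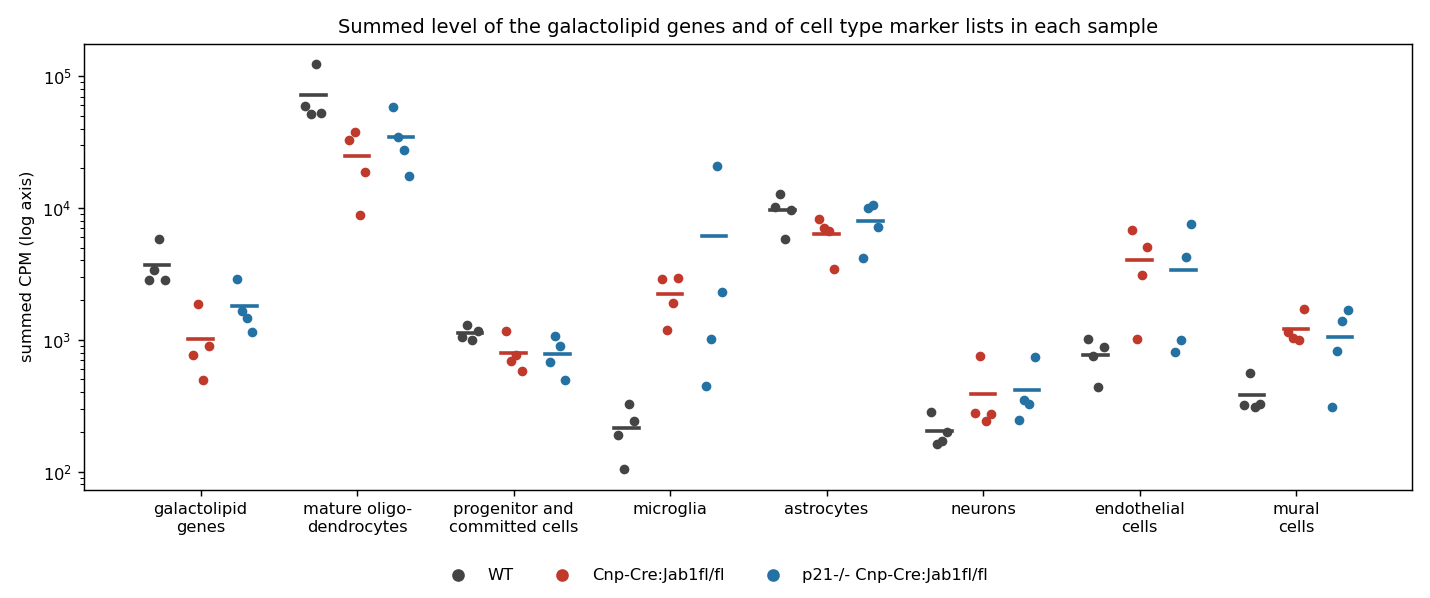
Summed CPM (log axis) of the 10 galactolipid genes and of 7 cell type marker lists in each of the 12 samples. Dots are samples and short lines are the means of 4 samples per genotype. The sums of the galactolipid genes and of the mature oligodendrocyte markers lay below all WT samples in all Jab1 mutant samples, whereas the microglia sum lay above them and reached 20856 CPM in 1 double mutant sample.

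All 10 genes passed the filter on low counts (1 CPM or more in 4 or more samples), and each reached 1 CPM in all 12 samples. The lowest count of any of them in a sample was 352, for Galc. In WT, levels per kilobase of exon ran from 567 CPM per kb for Cers2 down through 271 (Degs1), 235 (Elovl1), 149 (Ugt8a), 141 (Fa2h) and 121 (Gal3st1) to 26.6 (Sptlc1), 23.0 (Arsa), 10.2 (Sptlc2) and 3.85 CPM per kb (Galc). The order fell into steps, since the WT samples did not overlap between Gal3st1 and Sptlc1, between Arsa and Sptlc2, or between Sptlc2 and Galc. All other neighbours in this order overlapped. Cers2 headed the same order and Galc closed it in each of the 3 genotypes, and Gal3st1 stood above Ugt8a per kilobase in both mutant groups but below it in WT, with overlapping samples each time.

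To ask how the chain stood after loss of Jab1, Jab1 mutants were compared with WT by the quasi-likelihood test of edgeR over all 17716 genes that passed the filter, with Benjamini-Hochberg adjustment. Fa2h, Cers2 and Degs1, which hydroxylate the acyl chain, attach very long acyl chains and introduce the double bond of ceramide, fell below WT. No member was called higher. The 3 called genes are to be read against a background of 2.46% of all genes called lower and 5.19% called higher. Of the 10 genes, 9 had a fold change below 0 and the median was -1.20 on the log2 scale, beside 0.02 over all genes tested. An unadjusted p under the threshold was reached by 8 of the 10, against 22.5% of all genes, and 5 lay below every WT sample in every mutant sample, against 9.01% of all genes, while none lay above all WT samples (8.73% of all genes). These 5 were Fa2h, Cers2, Degs1, Ugt8a and Sptlc1.

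**Figure D2:**
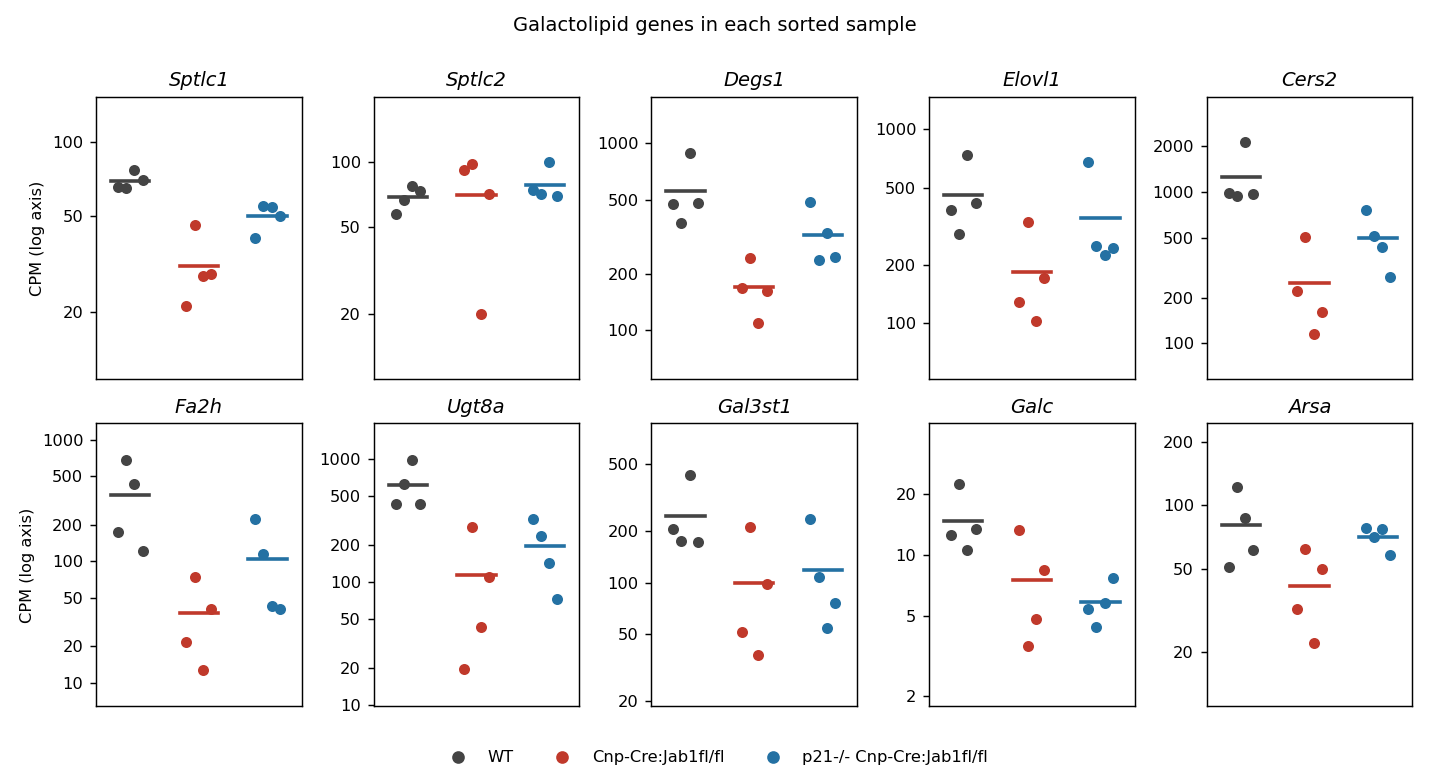
CPM (log axis) of the 10 genes in each sample, ordered along the chain from serine palmitoyltransferase to the lysosomal enzymes. Dots are samples and short lines are group means of 4 samples. Fa2h, Cers2, Degs1, Ugt8a and Sptlc1 show no overlap between WT and Jab1 mutants, while Sptlc2 lies at WT level in 3 of 4 Jab1 mutant samples or above it.

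Sptlc1 and Sptlc2 encode the paired subunits of serine palmitoyltransferase, the first and rate-limiting step. Sptlc1 (chr13:53332748-53377397, minus strand) stood at 65.6, 65.2, 77.0 and 69.9 CPM in the WT samples, at 21.2, 45.8, 28.1 and 28.6 CPM in the Jab1 mutants and at 40.6, 54.7, 54.2 and 49.6 CPM in the double mutants. All 8 mutant samples lay below all WT samples, and 3 of the 4 Jab1 mutant samples lay below all double mutant samples. The difference between Jab1 mutants and WT was -1.05 on the log2 scale (SE 0.29, edgeR adjusted p = 0.0502, n = 4 and 4), just outside the threshold of 0.05.

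Sptlc2 (chr12:87305058-87388355, minus strand) stood at 57.3, 66.3, 77.5 and 73.5 CPM in WT, at 91.6, 97.4, 20.0 and 70.8 CPM in Jab1 mutants and at 73.7, 70.9, 99.3 and 69.7 CPM in double mutants. The groups overlapped, with Jab1 mutant replicate 3 far below the rest. Its difference from WT in Jab1 mutants was 0.13 (95% interval -0.76 to 1.03, edgeR adjusted p = 0.893), and the sign turned when single Jab1 mutant samples were left out. The log2 ratio of Sptlc1 to Sptlc2 within a sample, described after the values had been seen, was 0.02 ± 0.12 (SD, n = 4) in WT, -0.99 ± 1.06 in Jab1 mutants and -0.64 ± 0.25 in double mutants. It ran from -0.07 to 0.19 in WT and from -0.86 to -0.37 in double mutants, whereas Jab1 mutant replicate 3 reached 0.47 and the other Jab1 mutant samples lay between -2.06 and -1.07.

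Degs1 (chr1:182275772-182282804, minus strand), the dihydroceramide desaturase, stood at 476, 376, 890 and 481 CPM in WT, at 169, 245, 109 and 161 CPM in Jab1 mutants and at 484, 239, 331 and 245 CPM in double mutants. Every Jab1 mutant sample lay below every WT sample, while double mutant replicate 1 lay within the WT range. Degs1 fell by 1.59 on the log2 scale in Jab1 mutants (SE 0.36, edgeR adjusted p = 0.0226). The related desaturase Degs2, which can also hydroxylate the sphingoid base, rose in the same comparison, as given with the ceramide genes.

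Elovl1 (chr4:118428093-118432953, plus strand) elongates the acyl chains that Cers2 then uses. It stood at 386, 289, 736 and 415 CPM in WT, at 129, 333, 103 and 172 CPM in Jab1 mutants and at 676, 252, 225 and 244 CPM in double mutants. Jab1 mutant replicate 2 lay within the WT range and the other 3 Jab1 mutant samples lay below it. The difference was -1.20 (SE 0.42, edgeR adjusted p = 0.110) and did not pass the test. Elovl1 shares 53 exon bases with Cdc20 on the other strand, which ranged from 0 to 55.5 CPM over the 12 samples.

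Cers2 (chr3:95314791-95323599, plus strand), the ceramide synthase for very long acyl chains, stood at 987, 936, 2131 and 974 CPM in WT, at 223, 507, 115 and 161 CPM in Jab1 mutants and at 757, 510, 433 and 276 CPM in double mutants. All mutant samples of both genotypes lay below all WT samples. Cers2 fell by 2.22 on the log2 scale in Jab1 mutants (SE 0.48, edgeR adjusted p = 0.0201). It shares 75 exon bases with Setdb1 and 34 with the antisense gene 6330562C20Rik, which reached at most 49.7 CPM and 6.67 CPM in any sample.

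Fa2h (chr8:111345135-111393824, minus strand) encodes fatty acid 2-hydroxylase, which makes the hydroxylated chains of myelin galactolipids. It stood at 173, 678, 428 and 122 CPM in WT, at 21.8, 74.9, 12.9 and 40.4 CPM in Jab1 mutants and at 223, 115, 42.5 and 40.5 CPM in double mutants. No Jab1 mutant sample reached the lowest WT sample, and double mutant replicates 1 and 2 stood above all Jab1 mutant samples. Fa2h fell by 3.12 on the log2 scale in Jab1 mutants (SE 0.65, edgeR adjusted p = 0.0166), the largest change among the 10 genes.

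Ugt8a (chr3:125865271-125938619, minus strand), the ceramide galactosyltransferase that makes the O1 antigen, stood at 434, 630, 982 and 435 CPM in WT, at 19.6, 285, 43.4 and 110 CPM in Jab1 mutants and at 327, 239, 144 and 73.4 CPM in double mutants. All 8 mutant samples lay below all WT samples, and within the Jab1 mutants replicate 2 stood far above replicate 1. The difference between Jab1 mutants and WT was -2.34 (SE 0.68, 95% interval -3.84 to -0.84, edgeR adjusted p = 0.0621). This fitted change was larger than that of Cers2 but did not pass the adjusted threshold.

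Gal3st1 (chr11:3983636-3999326, plus strand), the sulfotransferase that turns galactocerebroside into sulfatide, stood at 207, 175, 432 and 174 CPM in WT, at 51.1, 212, 37.3 and 98.5 CPM in Jab1 mutants and at 238, 108, 54.3 and 75.7 CPM in double mutants. Jab1 mutant replicate 2 and double mutant replicate 1 lay within the WT range, and the other 6 mutant samples lay below it. The difference between Jab1 mutants and WT was -1.20 (SE 0.52, 95% interval -2.34 to -0.06, edgeR adjusted p = 0.197).

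On the breakdown side, Galc (chr12:98202294-98259459, minus strand), which removes the galactose again, stood at 12.6, 22.5, 10.6 and 13.4 CPM in WT, at 13.3, 3.55, 4.84 and 8.39 CPM in Jab1 mutants and at 5.41, 4.40, 5.78 and 7.67 CPM in double mutants. Jab1 mutant replicate 1 lay within the WT range, whereas all double mutant samples lay below it. Arsa (chr15:89472476-89477425, minus strand), the sulfatide sulfatase, stood at 50.8, 122, 87.2 and 61.3 CPM in WT, at 32.0, 62.2, 22.2 and 49.8 CPM in Jab1 mutants and at 78.0, 70.7, 76.6 and 58.0 CPM in double mutants. Of the Jab1 mutant samples, replicate 2 reached the WT range, and all double mutant samples lay inside it. The differences between Jab1 mutants and WT were -0.85 for Galc (95% interval -2.02 to 0.32, edgeR adjusted p = 0.392) and -0.84 for Arsa (95% interval -1.68 to 0.00, edgeR adjusted p = 0.222). Galc shares 325 exon bases with the antisense gene Gm47439, which reached at most 0.081 CPM, and Arsa shares 690 with the antisense gene C230037L18Rik, which ranged from 2.65 to 33.5 CPM, so that reads of Arsa and of that gene cannot be told apart where the genes overlap.

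The Jab1 mutant samples were not alike in how far the chain was lowered. Replicate 3 lay below the lowest WT sample for 10 of the 10 genes, replicate 4 for 9, replicate 1 for 8 and replicate 2 for 6. Among the double mutants, replicate 1 did so for 4 genes and replicates 2, 3 and 5 for 8 each. No share of all genes was taken for these counts. The number of genes called rested on single samples. It was 7 without Jab1 mutant replicate 2, where 667 of all 17716 genes were called lower and 1196 higher. The number was 1 (Fa2h) without WT replicate 5 (174 of all genes lower and 504 higher). It was also 1 (Fa2h) without Jab1 mutant replicate 1 (230 and 561), 3 (228 and 551) or 4 (223 and 528). With all samples, 435 of all genes were called lower and 919 higher. DESeq2 called 6 of the 10 lower (Fa2h, Cers2, Degs1, Ugt8a, Sptlc1 and Elovl1), beside 5.71% of all genes called lower and 9.61% higher, and Fa2h was called in all 17 alternative settings in which it was tested. In bulk samples fewer cells of a type and less RNA per cell cannot be told apart, and 9 of the 15 mature oligodendrocyte markers were called lower and 15 of 15 microglia markers higher in the same comparison. Endothelial markers were called higher for 7 of 10, mural cell markers for 5 of 9 and progenitor or committed cell markers for 2 of 10 (Cspg4 and Bmp4), whereas no astrocyte or neuron marker was called. The part of any of these cells in the lower levels was not tested.

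The chain was then compared with the myelin markers of the same sample. For this, the mean log2(CPM + 1) of the 15 mature oligodendrocyte markers was subtracted from that of each gene. This marker mean was 10.63 ± 0.59 (SD, n = 4) in WT, 8.18 ± 1.04 in Jab1 mutants and 9.21 ± 0.90 in double mutants. Among the 15 is Cnp, whose promoter drives Cre in both mutant groups. Cnp averaged 7895 CPM in WT, 764 in Jab1 mutants and 1507 in double mutants, and the part of the transgene in this was not tested. In Jab1 mutants against WT, 14 of the 15 markers had a fold change below 0. Mbp was not lower, with means of 11307 CPM in WT, 12629 in Jab1 mutants and 12604 in double mutants. Relative to the marker mean, Ugt8a differed between Jab1 mutants and WT by -0.54 (two-sided exact permutation test, p = 0.457), Fa2h by -0.70 (exact p = 0.257) and Cers2 by 0.00 (exact p = 0.971). The difference of Ugt8a rested on Jab1 mutant replicate 1, at -3.33, and was -0.09 without it, and that of Fa2h was -0.13 without WT replicate 3. For Cers2 it ran from -0.18 to 0.20 with each replicate left out. No gene stood lower relative to the markers without overlap, as did 0.0734% of all genes. The WT values of Fa2h were themselves spread from -3.37 to -0.79, with replicate 3 highest, and all 4 Jab1 mutant values lay between -3.32 and -2.97.

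Relative to the markers, 4 of the 10 genes stood higher in Jab1 mutants than in WT without overlap, which 55.7% of all genes did. Without Jab1 mutant replicate 2 it was 7 of the 10, with no share of all genes taken there. With all samples the 4 were Gal3st1 (difference 0.95), Elovl1 (1.09), Sptlc1 (1.26) and Sptlc2 (2.27). Each had the smallest p that 4 against 4 samples allow (exact permutation p = 0.0286) and did not pass after adjustment over 30 tests (adjusted p = 0.143). Gal3st1 had the smallest spread of the 10 genes around its group mean in WT and in Jab1 mutants, at -2.82, -2.74, -2.74 and -2.86 in the WT samples and at -1.99, -1.81, -1.86 and -1.71 in the Jab1 mutants. In the double mutants it stood at -2.53, -2.49, -3.07 and -2.05, below all Jab1 mutant samples (difference -0.69, exact permutation p = 0.0286, adjusted p = 0.143), which 1.47% of all genes did, and no gene stood above them (0.0508% of all genes). That gap had overlap when the median of the markers was used in place of their mean.

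**Figure D3:**
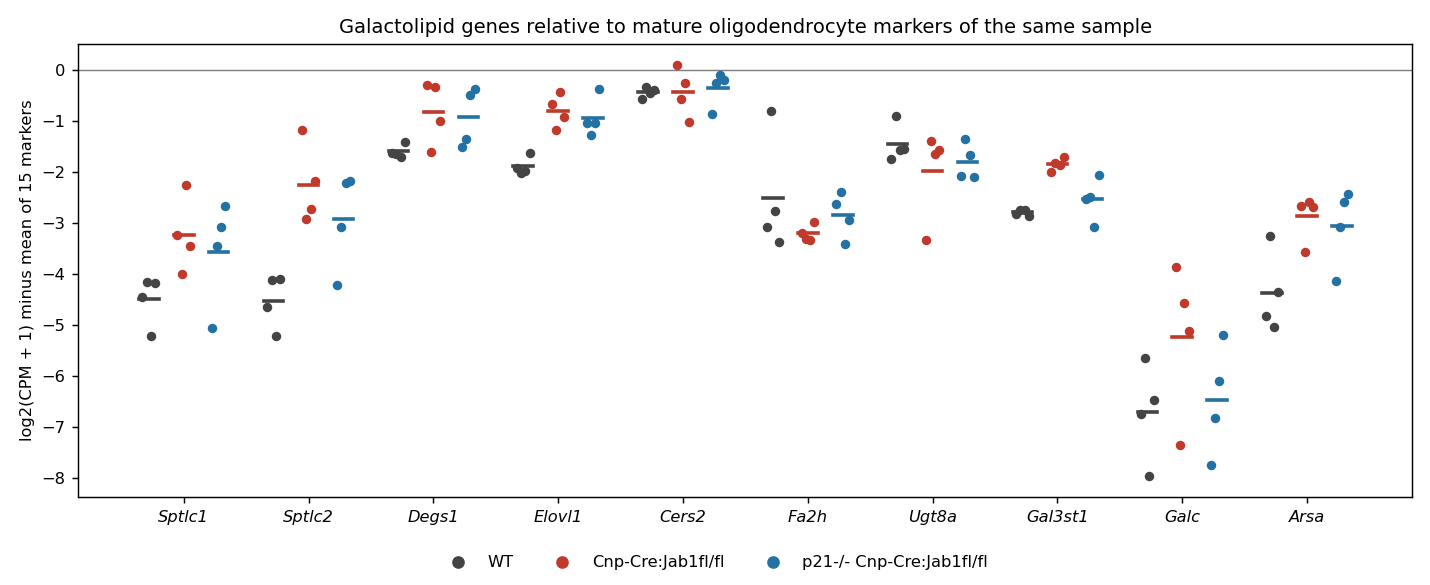
Level of each gene relative to the mature oligodendrocyte markers of the same sample, as log2(CPM + 1) minus the mean of the 15 markers (y axis). Dots are samples and short lines are group means. The Cers2 means are alike, at -0.43 in WT, -0.43 in Jab1 mutants and -0.35 in double mutants. The WT and Jab1 mutant samples separate for Gal3st1, Elovl1, Sptlc1 and Sptlc2.

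Ratios within a sample compared steps of the chain with each other. The log2 ratio of Gal3st1 to Ugt8a was -1.07, -1.85, -1.18 and -1.32 in WT, 1.34, -0.42, -0.21 and -0.15 in Jab1 mutants and -0.46, -1.14, -1.40 and 0.04 in double mutants. All Jab1 mutant samples lay above all WT samples and replicate 1 stood highest, while the double mutants overlapped both groups. The difference between Jab1 mutants and WT was 1.49 (exact permutation p = 0.0286, the smallest that the design allows, adjusted p = 0.429 over 15 tests), and 1.09 without Jab1 mutant replicate 1. The ratios of Fa2h, Cers2 and Galc to Ugt8a and of Arsa to Gal3st1 overlapped in all 3 comparisons. For the hydroxylase, the difference in the ratio of Fa2h to Ugt8a between Jab1 mutants and WT was -0.16 (exact permutation p = 0.657), and from -0.61 to 0.23 with each replicate left out. For the galactosidase, the ratio of Galc to Ugt8a differed by 2.02 with widely spread values (exact permutation p = 0.114), and by 1.12 without Jab1 mutant replicate 1.

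**Figure D4:**
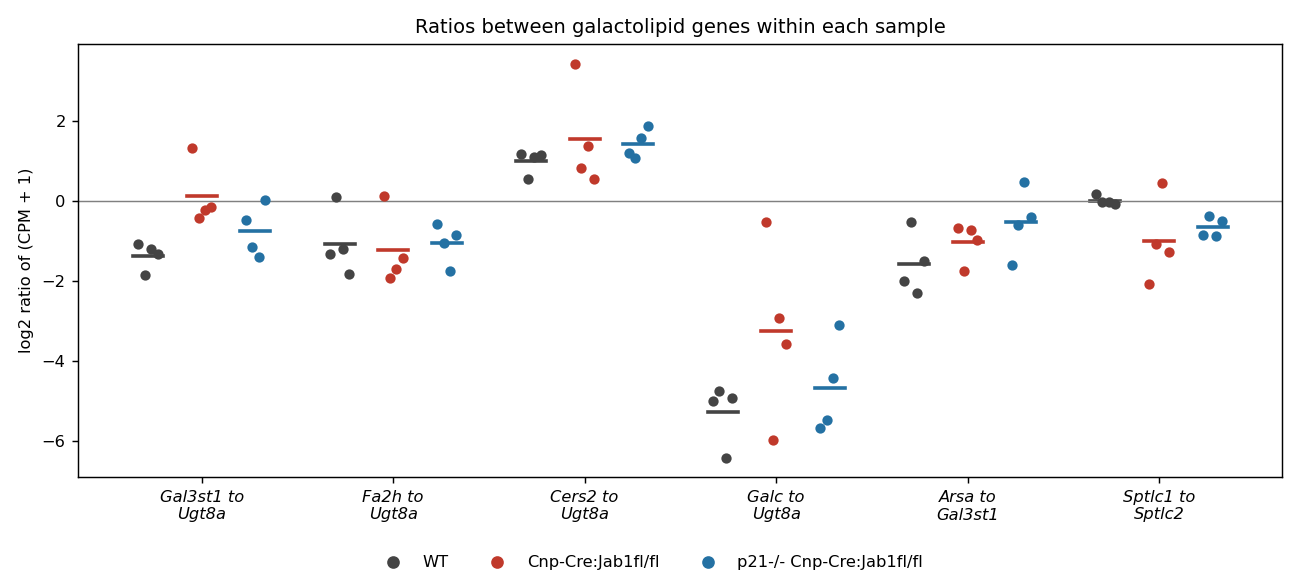
Log2 ratios of (CPM + 1) between genes of the chain within each sample (y axis), with dots for samples and short lines for group means. The ratio of Gal3st1 to Ugt8a is higher in all 4 Jab1 mutant samples than in all WT samples, and Sptlc1 to Sptlc2 is near 0 in WT.

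Double mutants were compared with WT to see where the chain stood when p21 was lacking as well. The WT samples are those of the comparison above. None of the 10 genes was called by edgeR, where 0.0169% of all genes were called lower and 0.175% higher, 4 had an unadjusted p under 0.05 (12.4% of all genes) and DESeq2 on these 8 samples called 2, Ugt8a and Cers2, as lower (1.14% of all genes called lower and 3.8% higher). DESeq2 on all 12 samples called neither. In 4 genes (Ugt8a, Cers2, Sptlc1 and Galc) all double mutant samples lay below all WT samples, against 4.13% of all genes, and no gene lay above all WT samples (4.01% of all genes). The difference was -1.62 for Ugt8a (SE 0.47, 95% interval -2.65 to -0.59, edgeR adjusted p = 0.197) and -1.30 for Cers2 (SE 0.41, 95% interval -2.19 to -0.40, edgeR adjusted p = 0.225). For Fa2h it was -1.70 (95% interval -3.15 to -0.24, edgeR adjusted p = 0.327) and for Galc -1.28 (95% interval -2.29 to -0.28, edgeR adjusted p = 0.279). Arsa and Elovl1 were nearest to WT on the lower side, with -0.12 (95% interval -0.82 to 0.57) and -0.34 (95% interval -1.30 to 0.62). The values of the remaining genes were -1.01 for Gal3st1, -0.72 for Degs1, -0.42 for Sptlc1 and 0.25 for Sptlc2, and the median over the 10 genes was -0.87, beside 0.00 over all genes. Relative to the mature oligodendrocyte markers, 1 of the 10 genes, Elovl1, stood above WT without overlap (difference 0.95, exact permutation p = 0.0286, adjusted p = 0.143), as did 20.7% of all genes, and none stood below it (0.158% of all genes). Without double mutant replicate 1 it was 6 of the 10, and 2 without double mutant replicate 3 or WT replicate 3 or 6. No share of all genes was taken with replicates left out.

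The direct comparison of double mutants with Jab1 mutants tests whether the genes differed with the loss of p21. No gene of the 10 was called by edgeR, nor by DESeq2 (0.384% of all genes called lower and 0.115% higher), and edgeR called none of all 17716 genes (0.0% in either direction). An unadjusted p under 0.05 was found for 2 of the 10 genes, against 5.0% of all genes, and no gene was free of overlap between the groups (1.91% of all genes lower and 1.35% higher). Those with an unadjusted p under 0.05 were Fa2h, with a difference of 1.44 (SE 0.64, 95% interval 0.02 to 2.86, unadjusted p = 0.0475 and adjusted p = 0.968 by edgeR), and Degs1, with 0.88 (SE 0.35, 95% interval 0.12 to 1.65, unadjusted p = 0.0274 and adjusted p = 0.956 by edgeR). For Cers2 the difference was 0.94 (95% interval -0.11 to 1.98), for Elovl1 0.88 (95% interval -0.16 to 1.92) and for Ugt8a 0.74 (95% interval -0.84 to 2.32). Arsa stood at 0.73 (95% interval -0.03 to 1.49), Sptlc1 at 0.64 (95% interval -0.06 to 1.34), Gal3st1 at 0.21 (95% interval -1.07 to 1.5) and Sptlc2 at 0.13 (95% interval -0.82 to 1.08). Galc was the gene with a value below 0, at -0.42 (95% interval -1.81 to 0.97). The fitted differences were above 0 for 9 of the 10 genes with a median of 0.73, and the intervals of all but Fa2h and Degs1 included 0.

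**Figure D5:**
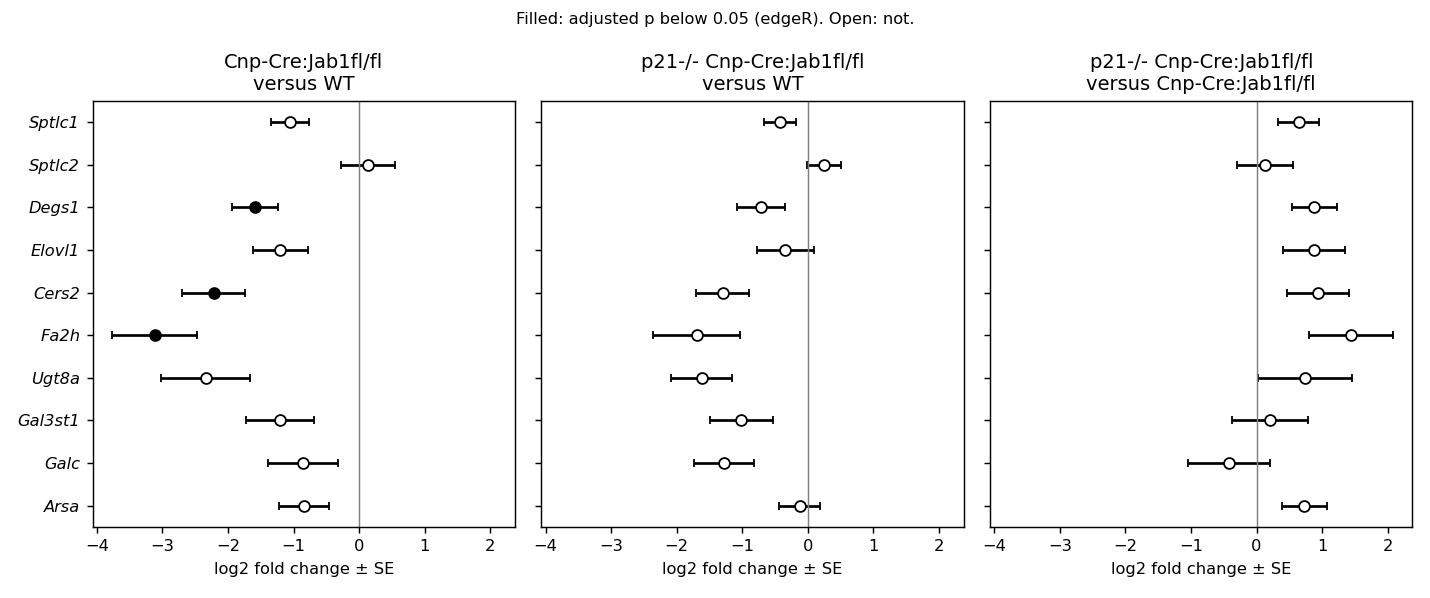
Log2 fold changes with standard errors (x axis) of the 10 genes in the 3 comparisons, by edgeR on 4 against 4 samples. Filled points passed the adjusted threshold of 0.05, which only Fa2h, Cers2 and Degs1 did in Jab1 mutants against WT. The left and middle panels share the WT samples, the middle and right panels share the double mutants, and the left and right panels share the Jab1 mutants.

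Among all 17715 other genes tested, the 10 whose centred log2(CPM + 1) profile over the 12 samples was most like that of Ugt8a were Lgi3, Tmem151a, Gjb1, Nipal4, Dpy19l1, Cpm, Pde1c, Pigz, Shisa8 and Itgb4. Their root mean square differences from Ugt8a ran from 0.42 to 0.49 log2 units, beside a median of 1.65 over all genes. Gjb1 encodes connexin 32, a gap junction protein of oligodendrocytes, and is on the list of mature oligodendrocyte markers. Lgi3, a secreted leucine-rich repeat protein, stood first and averaged 1067 ± 509 CPM (SD, n = 4) in WT, 123 ± 130 CPM in Jab1 mutants and 308 ± 201 CPM in double mutants. Of the galactolipid genes themselves, Fa2h (rank 63), Cers2 (rank 92) and Gal3st1 (rank 178) followed Ugt8a most closely. Elovl1, Degs1, Sptlc1 and Arsa came at ranks 373, 406, 858 and 985, whereas Sptlc2 (6360) and Galc (7075) were far down the order. The likeness is a description over 12 samples that share the genotype differences.

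The remaining genes of sphingolipid metabolism were read from 8 lists. In Jab1 mutants against WT, edgeR called 6 of their 76 tested genes lower and 5 higher, beside 2.46% of all genes called lower and 5.19% higher. Of 12 further genes of de novo ceramide synthesis that were tested, 2 were called lower and 2 higher. Kdsr, the reductase that follows serine palmitoyltransferase, fell from 58.4 to 68.8 CPM in WT to 21.1 to 35.1 CPM in Jab1 mutants (log2 fold change -1.03). Cers3, another ceramide synthase, had 141, 316, 0 and 159 counts in WT and 0 in all 4 Jab1 mutant samples and 117, 2, 0 and 0 in double mutants. A count of 0 thus also occurred in WT replicate 5, so that the groups overlapped, and no fold is given for this gene. Cers4, a ceramide synthase for shorter chains than those of Cers2, was higher (log2 fold change 1.55), from 26.4 ± 7.37 CPM (SD, n = 4) in WT to 70.9 ± 23.3 CPM in Jab1 mutants. Degs2 was also higher (log2 fold change 2.36), with 7.13 to 15.4 CPM in WT and 14.3 to 125 CPM in Jab1 mutants. Within the families of desaturases and ceramide synthases, Degs1, Cers2 and Cers3 were thus called lower, and Degs2 and Cers4 higher. The Degs2 samples overlapped between the groups. Cers1, Cers5 and Cers6 were not called (log2 fold changes -0.70, -0.79 and 0.64). Which cells carried these levels was not tested.

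Among fatty acid elongation genes all 10 tested had fold changes below 0 and 2 were called lower. Elovl6, which elongates shorter saturated chains, fell by 2.48 on the log2 scale, from 73.5 to 156 CPM in WT to 10.4 to 40.6 CPM in Jab1 mutants. Hacd1, a 3-hydroxyacyl-CoA dehydratase of the elongation cycle, fell by 1.38. All 10 genes that supply UDP-galactose or activated sulfate had fold changes below 0 and none was called. The one with the smallest p, Papss2, which makes the sulfate donor that Gal3st1 uses, had a log2 fold change of -1.36 (edgeR adjusted p = 0.110). For glucosylceramide and gangliosides, the other branch from ceramide, 7 of 10 genes were above 0 and none was called, the smallest p being that of St8sia1 (log2 fold change 3.03, edgeR adjusted p = 0.0896).

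Sgms1, a sphingomyelin synthase and a competitor for ceramide, was the 1 gene called among 7 of sphingomyelin metabolism and rose by 1.80 on the log2 scale, from 61.3 to 107 CPM in WT to 79.5 to 444 CPM in Jab1 mutants. Sgpp2, a sphingosine phosphate phosphatase, was the 1 called of 8 ceramidase and sphingosine phosphate genes tested (log2 fold change 2.25). Among 12 further lysosomal genes, Npc1, which exports cholesterol from lysosomes, was the 1 called lower (log2 fold change -1.51). Of 7 sphingolipid transport genes tested, Abca2, a lipid transporter abundant in oligodendrocytes, fell by 2.54. In the other comparisons none of the genes on these 8 lists was called.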

How the data were processed

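RNA from sorted O1+ CD45- cells was amplified with SMART-Seq v4 and sequenced as paired-end reads. According to the submitters' processing notes the authors trimmed reads with Trimmomatic 0.32, mapped the pairs to GRCm38 with STAR 2.5.3a and used featureCounts for gene counts. The values deposited by the authors are raw counts per gene, not normalized, for 12 samples, and strand and multi-mapping settings are not given in the sources used here. The authors named GENCODE release M22, and positions and exon lengths here come from release M21.

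Here, genes reaching 1 CPM in 4 or more samples were tested (17716 of 55376) with edgeR 4.0.16 in R 4.3.3 (TMM, quasi-likelihood, two-sided, no covariates, 4 against 4 samples, Benjamini-Hochberg over all genes, threshold 0.05). SE is the fold change divided by the root of F. DESeq2 1.42.0 was an alternative. Levels relative to markers and ratios used log2(CPM + 1) and exact permutation tests over 70 relabelings. Since CPM were scaled by TMM, they can differ from counts per total. Each value has counting error far below the spread of samples. Nothing says that samples came from separate litters, so p-values measure the spread between these samples. What the replicate numbers mark is not stated, and the main tests did not pair samples by them. Correlations of deviations ran from -0.19 to 0.08 between samples sharing a number and from -0.24 to 0.33 between other pairs. These values cannot show that samples were unpaired. The tests were also run on simulated data for Jab1 mutants against WT, with 200 of 17716 genes changed. At a log2 change of 1.5, edgeR recovered 0% of them and DESeq2 32.5%, and 48.4% of the DESeq2 calls were false. At a change of 3, edgeR recovered 57.5% and DESeq2 73%, with 4.17% and 37.6% of their calls false. In the data themselves edgeR called 1354 of 17716 genes, so the simulated shares cannot be read as those of the data. Kdsr and Hacd1 were called there at log2 fold changes of -1.03 and -1.38, while Ugt8a at -2.34 was not. A gene that edgeR did not call is not shown to be unchanged.

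The 10 genes and all lists were chosen with earlier results of these data known. Named besides them were genes of the wider lists called in any comparison, the gene with the smallest p where none was called, and the 10 genes most like Ugt8a. One result that this rule would name is not reported here. The alternatives covered normalization, filter, test, samples in the fit, the replicate block, pseudocount, markers and each replicate left out.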

Additional observations from a re-analysis of the deposited data

Results flagged for a closer look

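Each of the 10 genes was looked at in each genotype for a sample that stood apart from the other 3 of its group, which makes 30 groups of 4. A sample stood apart when its gap to the nearest other sample, divided by the range of the group, exceeded Dixon's 95% critical value for 4 samples. If groups were independent and normally distributed, about 1 in 20 would be picked up this way by chance, and 4 of the 30 were. The groups share the same 12 samples and CPM were not put on a log scale, so that rate cannot be applied to them.

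In WT, replicate 5 stood apart for Cers2, at 2131 CPM (ratio 0.957), and for Gal3st1, at 432 CPM (ratio 0.875). In double mutants, replicate 1 stood apart for Elovl1, at 676 CPM (ratio 0.941), and replicate 3 for Sptlc2, at 99.3 CPM (ratio 0.863). All 4 were the highest sample of their group. WT replicate 5 also had the highest mature oligodendrocyte marker mean, 11.50 on the log2 scale, and double mutant replicate 3 the highest microglia marker sum, 20856 CPM, and the part of either in these values was not tested.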

How the results depend on the processing

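In Jab1 mutants against WT the number of galactolipid genes called, 3 by edgeR, was 6 with DESeq2 (both on the 8 samples compared and on all 12) and 5 when a mean of at least 10 CPM was required, a filter that left out Galc. Of all genes, 435 of 17716 were called lower by edgeR, 1002 of 17558 and 823 of 17602 with DESeq2, and 485 of 10441 with that filter. Called higher were 919, 1687, 1491 and 937 in the same order. In double mutants against WT the number of galactolipid genes called was 0 by edgeR and 2 with DESeq2 on the 8 samples compared. With each replicate left out in turn it ran from 1 to 7 in Jab1 mutants against WT and stayed at 0 in the other 2 comparisons. Counts of genes relative to the markers without overlap ran from 4 to 7, from 1 to 6 and from 1 to 2 (2 without Jab1 mutant replicate 2 or double mutant replicate 3) with replicates left out, for Jab1 mutants against WT, double mutants against WT and double mutants against Jab1 mutants, and the last was 0 with the median of the markers. Counts of ratios without overlap ran from 1 to 2, 0 to 1 and 0 to 1 in that order. For the counts relative to the markers, no share of all genes was taken with replicates left out. The cause of these changes was not tested, except that leaving out a sample leaves fewer samples.

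Signs turned in values near 0 with replicates left out. The log2 fold change ran from -0.054 to 0.44 for Sptlc2 in Jab1 mutants against WT (below 0 without Jab1 mutant replicate 1 or 2). In double mutants against WT it ran from -0.86 to 0.0018 for Elovl1 (above 0 without WT replicate 5) and from -0.29 to 0.15 for Arsa (above 0 without WT replicate 3). In double mutants against Jab1 mutants it ran from -0.37 to 0.85 for Gal3st1 (below 0 without Jab1 mutant replicate 3 or double mutant replicate 1), from -0.17 to 0.31 for Sptlc2 (below 0 without replicate 3 of either genotype) and from -0.66 to 0.013 for Galc (above 0 without Jab1 mutant replicate 1). Cers2 relative to the median of the markers was -0.038 there.

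With the replicate block, edgeR called 3 of the genes in Jab1 mutants against WT (Ugt8a, Fa2h and Cers2) and 0 in the other comparisons, on the samples that share a number. Those samples without the block, an alternative chosen after seeing the data, gave 2 (Ugt8a and Fa2h). Of all 17716 genes, 222 were called lower and 496 higher with the block, and 141 lower and 331 higher without it. Sptlc2 in Jab1 mutants against WT was -0.37 with the block and -0.00222 on those samples without it. All genes called in Jab1 mutants against WT numbered 1354 by edgeR and 2689 with DESeq2, and in double mutants against WT 34 and 862.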
